A study of Mus musculus with 12 samples.

Results

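The 10 genes described here are receptors of the Toll and interleukin-1 (IL-1) family and the proteins that carry or dampen their signal: Tlr2, Tlr3, Tlr4, Il1r1, Il1rl1, Il1rn, Myd88, Irak3, Nfkbia and Tnfaip3. They were chosen by gene family, with earlier results of these data known, out of the 21556 genes of the count table, and all 10 were found in it. Their response to TGF-β2 is therefore given as a description, and each adjusted p-value only places a gene within the fit over all genes. RNA sequencing was done on primary mouse skin fibroblasts in 4 groups of 3 libraries. WT cells came from C57BL/6 mice and Nox4 KO cells from mice lacking the NADPH oxidase Nox4, a source of reactive oxygen species, and cells of each genotype were either left as control or stimulated with 10 ng/ml TGF-β2 for 24 h. All cells had been starved for 24 h before stimulation. The cultures were expanded over several passages, the WT and KO animals were from separate litters, and the labels do not say whether replicates came from separate animals, so p-values measure the spread between these libraries.

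Toll-like receptors recognise microbial products, and the receptors for IL-1 and IL-33 recognise cytokines released by damaged or activated cells. Most of them share a cytoplasmic TIR domain that recruits the adaptor MyD88, which assembles kinases of the IRAK family and leads to the transcription factor NF-κB. IRAK-M, the product of Irak3, holds back this assembly, and IκBα and A20, the products of Nfkbia and Tnfaip3, are inhibitors that NF-κB itself induces. In skin, fibroblasts use these receptors to answer injury with chemokines and cytokines.

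Each library held 35118344 to 43796260 counts. Expression is given as RPKM, reads per kilobase of merged exon and per 1000000 counts of the library. A gene was tested when its mean reached 1 RPKM in at least 1 group compared, and it passed at a Benjamini-Hochberg adjusted p under 0.05 in edgeR's quasi-likelihood test. All 7 fibroblast markers were above 1 RPKM in every library, summing to 3970 to 6820 RPKM, and mast cell, neutrophil and T cell markers summed to at most 0.187, 0.154 and 0.0835 RPKM. The fibroblast markers moved with TGF-β2 as well: all 7 had a log2 fold change below 0 in both genotypes, 2 passed lower in WT and 3 in Nox4 KO, and Pdgfra, a receptor for platelet-derived growth factor, fell from 39.9 ± 9.06 to 3.79 ± 0.916 RPKM in WT and from 27.7 ± 5.52 to 3.31 ± 0.437 in Nox4 KO (SD, n = 3). Their part in the results below was not tested. The 12 macrophage markers summed to 17 to 158 RPKM. Their sum was highest in replicate 3 of both WT groups (158 and 116) and replicate 1 of both Nox4 KO groups (123 and 91.5). Of these markers 9 reached the limit for testing, and none of the 9 passed in any comparison. With TGF-β2 all 9 had a log2 fold change below 0 in both genotypes. Reads of Nox4 itself were present in all groups, at 1.74 ± 0.602 RPKM before and 11.9 ± 3.97 after TGF-β2 in WT cells and at 0.896 ± 0.435 before and 5.26 ± 1.38 after it in KO cells (SD, n = 3).

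The sequences before the start sites are shown for Irak3, Il1r1 and Il1rn, which fell with TGF-β2 in both genotypes, and for Nfkbia, which did not pass in either. They are from RefSeq (GRCm38.p6), are written 5′ to 3′ on the strand of the gene and end at the annotated start. Capitals mark a match to the NF-κB consensus in Nfkbia and to the AP-1 motif TGANTCA in Il1rn. The Irak3 sequence is chr10:120202131-120202380 on the minus strand, that of Il1r1 chr1:40224830-40225079 on the plus strand, that of Il1rn chr2:24336610-24336852 on the plus strand and that of Nfkbia chr12:55492648-55492897 on the minus strand.
Irak3: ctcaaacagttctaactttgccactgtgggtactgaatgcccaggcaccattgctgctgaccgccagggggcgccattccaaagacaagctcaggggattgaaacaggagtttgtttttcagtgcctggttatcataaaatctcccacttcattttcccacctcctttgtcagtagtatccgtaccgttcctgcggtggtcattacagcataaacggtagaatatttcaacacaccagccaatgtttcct
Il1r1: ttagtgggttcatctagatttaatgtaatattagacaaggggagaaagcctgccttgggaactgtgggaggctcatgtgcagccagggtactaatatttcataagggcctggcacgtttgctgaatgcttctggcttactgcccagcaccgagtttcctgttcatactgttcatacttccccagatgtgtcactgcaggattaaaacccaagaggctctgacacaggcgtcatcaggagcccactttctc
Il1rn: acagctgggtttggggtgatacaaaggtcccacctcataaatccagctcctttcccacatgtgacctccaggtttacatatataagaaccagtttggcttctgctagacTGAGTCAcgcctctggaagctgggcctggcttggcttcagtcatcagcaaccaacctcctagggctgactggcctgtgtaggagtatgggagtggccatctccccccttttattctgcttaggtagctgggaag
Nfkbia: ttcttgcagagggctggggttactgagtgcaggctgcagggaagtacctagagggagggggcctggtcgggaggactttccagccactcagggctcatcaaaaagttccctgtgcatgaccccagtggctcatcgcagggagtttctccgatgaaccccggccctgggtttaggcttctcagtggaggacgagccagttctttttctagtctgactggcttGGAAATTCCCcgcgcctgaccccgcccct

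Of the 10 genes, 9 had a promoter in the RefSeq table, all but Tlr4. On either strand of the 250 bases before a start, 7.25% of all 32851 promoters held the NF-κB consensus, 6.75% held TGANTCA and 42.2% held CAGAC, a SMAD-type motif. Where a gene had several starts, the window nearest the annotated gene start was taken. For Myd88, Tlr3, Tnfaip3 and Tlr2 the start used lay within the annotated gene, 1393, 700, 247 and 159 bases from its annotated start. Irak3, Il1r1, Il1rl1 and Myd88 held none of the 3 motifs there, though a second Il1r1 start held 1 match to the NF-κB consensus. Il1rn held 1 match to TGANTCA. The consensus had 2 overlapping matches in Tlr2, 1 in Tlr3, 1 in Nfkbia, 29 to 20 bases before the start, and 2 in Tnfaip3. CAGAC had 1 match each in Tlr2 and Nfkbia, and TGANTCA 1 in Tnfaip3. Genes that fell and genes that did not pass were found both with and without the consensus. A match is a description of letters and not of binding.

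In WT fibroblasts TGF-β2 lowered 5 of the 9 genes tested, all of them at least 2-fold: Il1rn, Il1r1, Irak3, Tlr3 and Tlr4. Over all 10743 genes tested 22.6% passed (12.2% lower, 10.4% higher), and 7.72% passed with at least a 2-fold change (5.09% lower). In Nox4 KO fibroblasts Irak3, Il1r1 and Il1rn fell, 3 of 9, all at least 2-fold, against 30% of all 10809 genes tested (14.9% lower, 15.1% higher) and 6.8% with at least 2-fold (4.58% lower). The median log2 fold change of the 9 genes was -1.15 in WT and -0.65 in Nox4 KO, beside 0.00 and -0.01 over all genes tested. Libraries with and without TGF-β2 did not overlap for 6 of 9 genes in WT, beside 45.2% of all genes, and for 5 of 9 in Nox4 KO, beside 48.5%. In bulk RNA, fewer cells of a type and less RNA per cell cannot be told apart.

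In Nox4 KO the control and TGF-β2 libraries of the same number deviated together, and with the replicate as a block 7 of 9 genes passed, as did 54% of all genes. The 4 added by the block were Tlr3 (log2 fold change -0.66, adjusted p = 0.00379), Tlr4 (-0.73, adjusted p = 0.0184), Myd88 (-0.22, adjusted p = 0.0376) and Nfkbia (-0.28, adjusted p = 0.025). Leaving out 1 library at a time gave 3 to 4 passing genes in WT, with 11.5% to 31.6% of all genes passing, and 2 to 5 in Nox4 KO, with 10.5% to 32.4%.

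**Figure D1:**
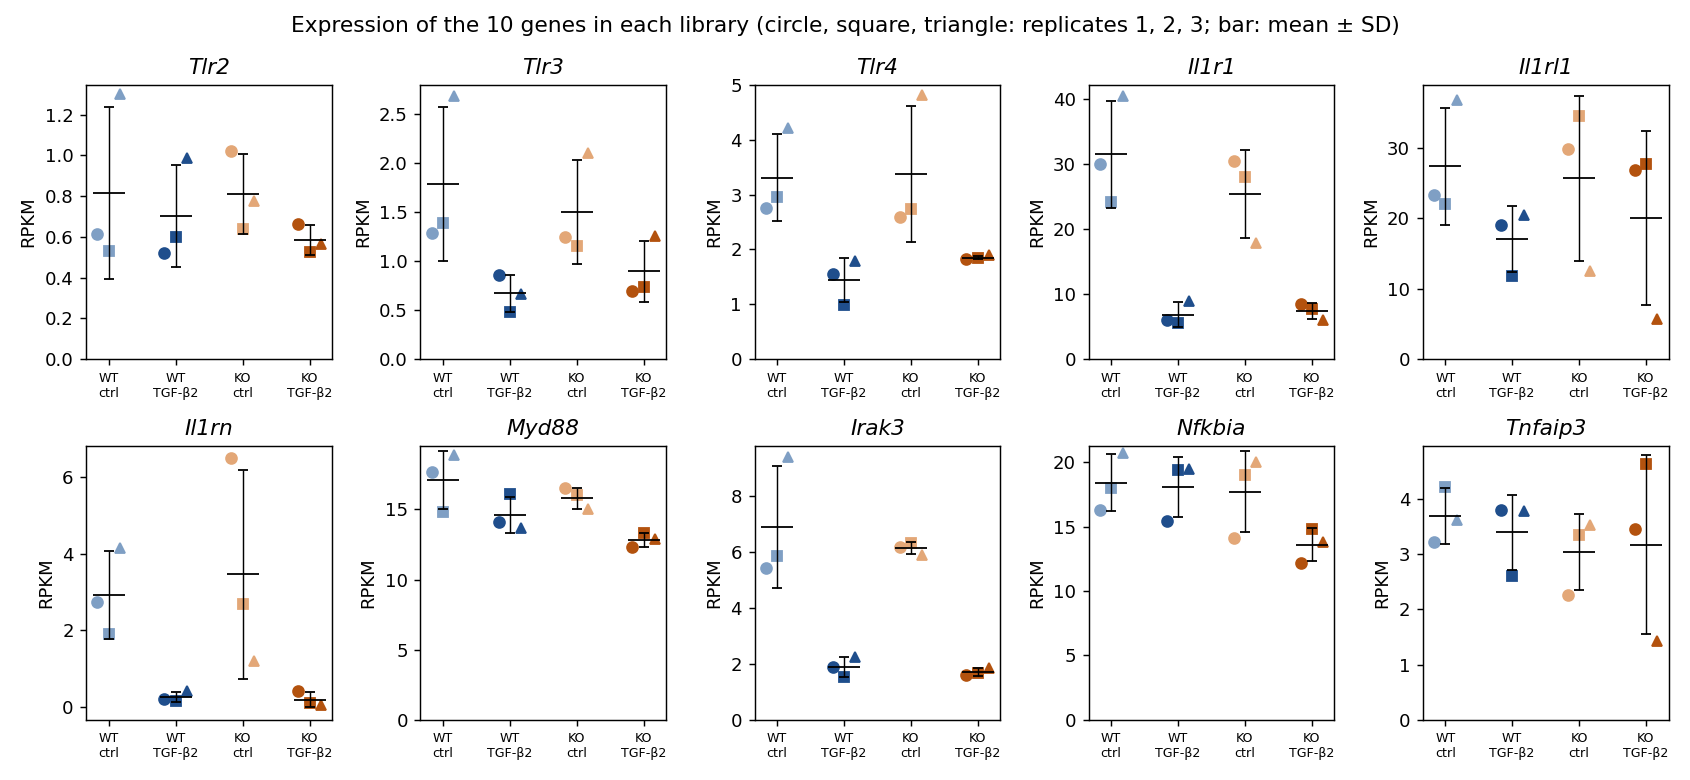
RPKM (vertical axes, starting at or just below 0) of the 10 genes in each of the 12 libraries by group, with replicates 1, 2 and 3 as circle, square and triangle and the mean ± SD as bars. Irak3 and Il1r1 separated stimulated from control libraries in both genotypes, whereas Nfkbia and Tnfaip3 overlapped in both.

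Irak3 (ENSMUSG00000020227, chromosome 10, 120141648 to 120202130, minus strand, GRCm38) encodes IRAK-M. In WT control its 3 libraries had 5.43, 5.88 and 9.42 RPKM, and with TGF-β2 they had 1.88, 1.53 and 2.25. In Nox4 KO control they had 6.19, 6.34 and 5.91 RPKM, and with TGF-β2 1.59, 1.67 and 1.86. Every stimulated library lay below every control library, and of the 4 groups the Nox4 KO control was the tightest, with a coefficient of variation of 3.55%. The log2 fold change was -1.83 (SE 0.24, adjusted p = 0.00386) in WT and -1.76 (SE 0.10, adjusted p = 0.00101) in Nox4 KO, where it ranked 16 of 10809 genes by p-value. Irak3 passed in both genotypes whichever single library was left out, with log2 fold changes from -1.97 to -1.54 in WT and from -1.82 to -1.71 in Nox4 KO. It shares 192 exon bases with Tmbim4 on the opposite strand, and the strand used in counting is not given in the sources used here. Tmbim4 had 50.3 ± 1.8 RPKM in WT control and 51.9 ± 11.2 with TGF-β2, and 50.9 ± 5.6 and 41.6 ± 4.33 in Nox4 KO (SD, n = 3), with log2 fold changes of 0.08 and -0.20 (adjusted p = 0.714 and 0.184). The highest Irak3 library in both WT groups was replicate 3, which had the most macrophage markers, and in Nox4 KO it was another library than the one with the most; their part in its level was not tested.

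Of the other 3 IRAK genes, 1 rose and 2 did not pass. Irak1, a kinase of the receptor complex, had 27.2 ± 3.12 RPKM in WT control and 25.3 ± 2.79 with TGF-β2, and Irak4, which starts the kinase cascade, had 2.96 ± 0.278 and 2.74 ± 0.0719 (SD, n = 3). Neither passed in either genotype (adjusted p = 0.743 and 0.998 for Irak1, 0.663 and 0.77 for Irak4, in WT and Nox4 KO). Irak2, which sustains signalling, rose by a log2 fold change of 0.61 (SE 0.12, adjusted p = 0.0119) in WT and 0.52 (SE 0.11, adjusted p = 0.0171) in Nox4 KO. The RPKM ratio of Irak3 to Irak1 went from 0.251 ± 0.0486 to 0.074 ± 0.00603 with TGF-β2 in WT cells and from 0.223 ± 0.0324 to 0.0651 ± 0.001 in KO cells (SD, n = 3).

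**Figure D2:**
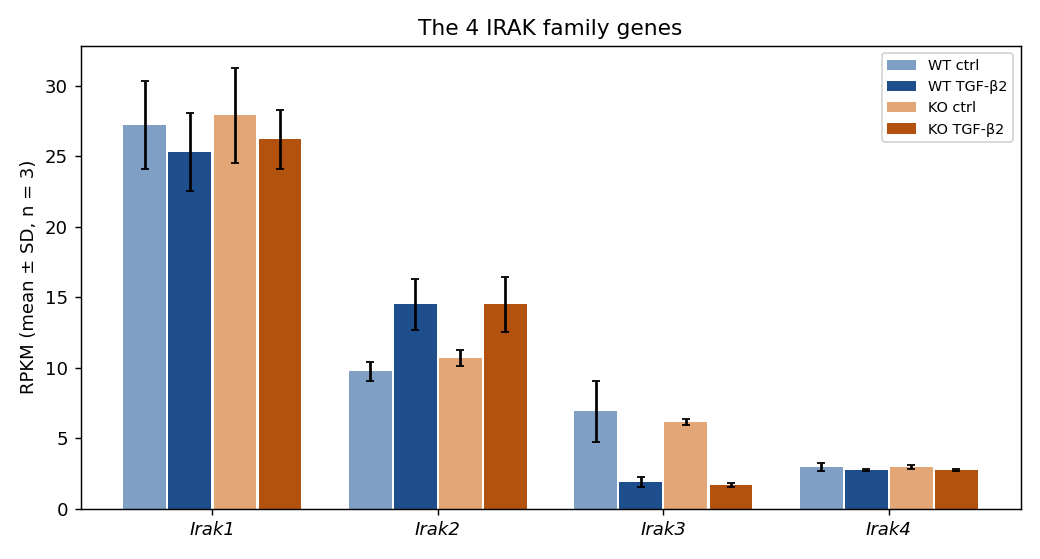
Mean RPKM ± SD (n = 3 libraries, bars from 0) of Irak1, Irak2, Irak3 and Irak4 in the 4 groups. Irak3 was lower with TGF-β2 in both genotypes, Irak2 was higher, and the Irak1 and Irak4 bars differed by less.

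Il1r1 (chromosome 1, 40225080 to 40317257) encodes the signalling receptor for IL-1. Its libraries had 30, 24.1 and 40.4 RPKM in WT control and 5.99, 5.57 and 8.98 with TGF-β2. In Nox4 KO they had 30.5, 28 and 17.8 RPKM in control and 8.4, 7.68 and 5.99 with TGF-β2. The stimulated libraries were all below the control libraries, with a log2 fold change of -2.16 (SE 0.25, adjusted p = 0.00225) in WT and -1.71 (SE 0.24, adjusted p = 0.00653) in Nox4 KO. Without the pair of Nox4 KO replicate 1 libraries, high in macrophage markers, it was -1.66 with adjusted p = 0.0659, and 2.37% of all genes passed.

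Il1rl1 (chromosome 1, 40429570 to 40465415), the receptor for IL-33, was about as abundant as Il1r1 in control but did not pass without the block. Its libraries had 23.3, 22 and 36.9 RPKM in WT control and 19.1, 11.8 and 20.5 with TGF-β2, without overlap (log2 fold change -0.62, SE 0.27, adjusted p = 0.142). In Nox4 KO they had 29.9, 34.6 and 12.5 RPKM in control and 26.9, 27.7 and 5.75 with TGF-β2 (-0.27, SE 0.65, adjusted p = 0.776). Replicate 3 was the low library in both Nox4 KO groups, and the groups overlapped, while each of the 3 same-numbered pairs was lower with TGF-β2. With the replicate block the values were -0.64 (SE 0.15, adjusted p = 0.0261) in WT and -0.43 (SE 0.18, adjusted p = 0.094) in Nox4 KO. The RPKM ratio of Il1rl1 to Il1r1 was 0.867 ± 0.0785 in WT control and 2.53 ± 0.579 with TGF-β2, and 0.975 ± 0.269 and 2.59 ± 1.43 in Nox4 KO (SD, n = 3), with a lowest stimulated KO library of 0.961.

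Both receptor genes lie in a cluster on the plus strand of chromosome 1, in the order Il1r2, Il1r1, Il1rl2, Il1rl1, Il18r1, Il18rap. Il1rl2, the IL-36 receptor, fell in WT by a log2 fold change of -0.86 (SE 0.17, adjusted p = 0.0131), from 16.3 ± 2.69 to 8.67 ± 1.59 RPKM. In Nox4 KO it had 14.6 ± 3.4 and 8.68 ± 1.26 RPKM (SD, n = 3) and did not pass (-0.67, SE 0.21, adjusted p = 0.0566). Il1r2, a decoy receptor for IL-1, was under the limit for testing, with 0.612 ± 0.209 RPKM in WT control, 0.173 ± 0.122 with TGF-β2, and 0.429 ± 0.145 and 0.0771 ± 0.0247 in Nox4 KO. Il18rap stayed at or below 1.29 RPKM and Il18r1 at or below 0.0463 RPKM in every library.

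**Figure D3:**
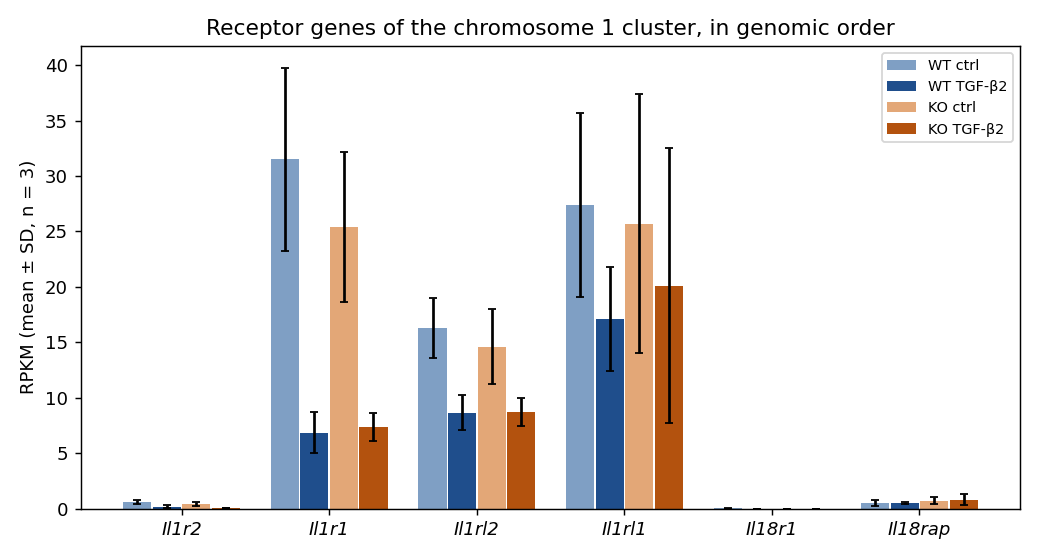
Mean RPKM ± SD (n = 3 libraries, bars from 0) of the 6 receptor genes of the chromosome 1 cluster, in genomic order. Il1r1 had the tallest control bar in WT (31.5) and was below Il1rl1 with TGF-β2 in both genotypes, while in Nox4 KO control both stood near 25.4 to 25.7.

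Il1rn (chromosome 2, 24336853 to 24351494) encodes the IL-1 receptor antagonist, which occupies IL1R1 without signalling. It had 2.73, 1.89 and 4.15 RPKM in WT control and 0.199, 0.147 and 0.407 with TGF-β2. In Nox4 KO it had 6.5, 2.68 and 1.19 RPKM in control and 0.413, 0.0844 and 0.0526 with TGF-β2, the last from 6 counts. No stimulated library reached a control library. The log2 fold change was -3.49 (SE 0.45, adjusted p = 0.00352) in WT and -4.15 (SE 0.96, adjusted p = 0.024) in Nox4 KO, where leaving out control replicate 1, control replicate 2 or TGF-β2 replicate 2 gave adjusted p = 0.0624, 0.0581 and 0.0954. The Nox4 KO value was -3.31 without control replicate 1 and -5.55 without TGF-β2 replicate 1. Within each of the 4 groups Il1rn and Il1r1, 2 of the 10 genes, stood in the same order of libraries as the summed macrophage markers. How many of all genes did so was not counted for these markers. Over those markers the median change with TGF-β2 was -0.25 (log2) for WT and -0.38 for Nox4 KO, with 0 of 9 passing, and their part in the level of either gene was not tested.

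Tlr4 (chromosome 4, 66827584 to 66930284), the receptor for lipopolysaccharide, had 2.76, 2.96 and 4.21 RPKM in WT control and 1.55, 0.994 and 1.78 with TGF-β2. In Nox4 KO it had 2.6, 2.74 and 4.81 RPKM in control and 1.83, 1.84 and 1.89 with TGF-β2. Groups did not overlap in either genotype, and the log2 fold change was -1.15 (SE 0.26, adjusted p = 0.0214) in WT and -0.78 (SE 0.23, adjusted p = 0.0507) in Nox4 KO. The WT call was lost without control replicate 2 or 3 or TGF-β2 replicate 1 (adjusted p = 0.0598, 0.081 and 0.0632). The log2 fold changes in these fits were -1.19, -0.94 and -1.23.

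Tlr3 (chromosome 8, 45395665 to 45411080), the endosomal receptor for double-stranded RNA, had 1.29, 1.39 and 2.69 RPKM in WT control and 0.862, 0.482 and 0.669 with TGF-β2 (log2 fold change -1.36, SE 0.35, adjusted p = 0.0334). In Nox4 KO it had 1.25, 1.15 and 2.11 RPKM in control and 0.7, 0.732 and 1.26 with TGF-β2 (-0.65, SE 0.32, adjusted p = 0.173). The WT groups were separate and the Nox4 KO groups overlapped through replicate 3. The WT call was lost whichever library was left out, with adjusted p from 0.0516 to 0.0902 and log2 fold changes from -1.61 to -0.94. It shares 381 exon bases with Gm45542 on the opposite strand.

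Tlr2 (chromosome 3, 83836272 to 83841767), the receptor for bacterial lipopeptides, stayed under the limit for testing, with 61 to 158 counts per library. It had 0.614, 0.531 and 1.3 RPKM in WT control and 0.521, 0.598 and 0.989 with TGF-β2, and 1.02, 0.636 and 0.776 in Nox4 KO control and 0.665, 0.523 and 0.567 with TGF-β2. Groups overlapped in both genotypes (two-sided exact permutation test on log2(CPM + 0.5), p = 0.6 in WT and p = 0.2 in Nox4 KO, where 0.1 is the smallest that 3 against 3 allows). In each group its highest library was the one with the most macrophage markers, whose part in its level was not tested.

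**Figure D4:**
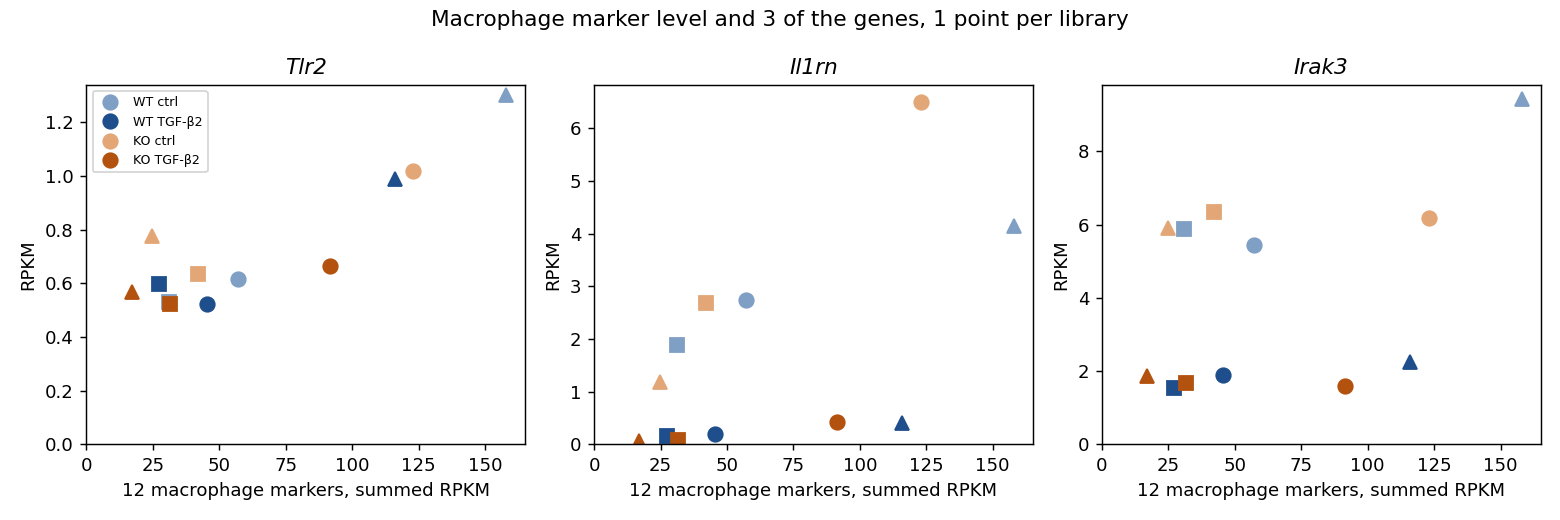
RPKM of Tlr2, Il1rn and Irak3 (vertical axes) against the summed RPKM of 12 macrophage markers (horizontal axes), 1 point per library, with colour for group and symbol for replicate. The highest Tlr2 library, 1.3 RPKM, had the highest marker sum, 158, as did the highest Irak3 library, 9.42 RPKM. Irak3 had 1.53 to 2.25 RPKM in the stimulated libraries, and Il1rn followed the marker order within every group.

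The adaptor Myd88 and the NF-κB inhibitors did not pass in either genotype in this test. Myd88 (chromosome 9, 119335934 to 119341411) had 17.7, 14.8 and 18.9 RPKM in WT control and 14.1, 16.1 and 13.7 with TGF-β2 (log2 fold change -0.19, SE 0.11, adjusted p = 0.266). In Nox4 KO it had 16.5, 16 and 15 RPKM in control and 12.3, 13.3 and 12.9 with TGF-β2, without overlap (-0.22, SE 0.07, adjusted p = 0.0673). It passed there with library size only (-0.31, adjusted p = 0.0209) and without control replicate 3 (-0.27, adjusted p = 0.039). It shares 290 exon bases with Acaa1a on the opposite strand. Acaa1a had 29.7 ± 4.82 RPKM in WT control and 27.3 ± 3.22 with TGF-β2, and 30.4 ± 3.22 and 24.2 ± 4.8 in Nox4 KO (SD, n = 3). Its log2 fold changes were -0.08 and -0.25 (adjusted p = 0.699 and 0.232), and its part in the Myd88 counts was not tested.

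Nfkbia (chromosome 12, 55489410 to 55492647) had 16.3, 18 and 20.7 RPKM in WT control and 15.4, 19.4 and 19.5 with TGF-β2 (log2 fold change 0.02, SE 0.12, adjusted p = 0.922). In Nox4 KO it had 14.1, 19 and 20 RPKM in control and 12.2, 14.8 and 13.8 with TGF-β2 (-0.29, SE 0.15, adjusted p = 0.178). Groups overlapped in both genotypes. Tnfaip3 (chromosome 10, 19000910 to 19015657) had 3.22, 4.22 and 3.62 RPKM in WT control and 3.79, 2.6 and 3.77 with TGF-β2 (-0.08, SE 0.19, adjusted p = 0.789), and 2.26, 3.35 and 3.52 in Nox4 KO control and 3.46, 4.62 and 1.42 with TGF-β2 (0.15, SE 0.43, adjusted p = 0.809). Its stimulated Nox4 KO libraries enclosed the control range.

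**Figure D5:**
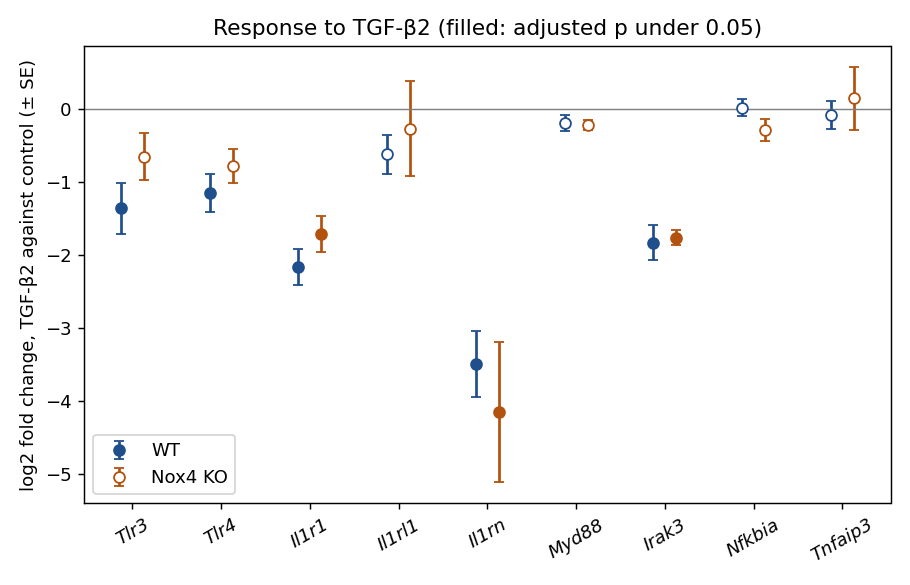
Log2 fold change ± SE with TGF-β2 against control (vertical axis) for the 9 genes tested, WT in blue and Nox4 KO in orange, filled where the adjusted p was under 0.05. Il1rn, Il1r1 and Irak3 are filled in both genotypes, and Tlr3 and Tlr4 in WT.

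Ranked by mean RPKM, Il1r1 (31.5 ± 8.24) and Il1rl1 (27.4 ± 8.27) led the 10 genes in WT control (SD, n = 3) and their libraries overlapped. Nfkbia (18.4 ± 2.23) and Myd88 (17.1 ± 2.1) came next and overlapped each other, Irak3 (6.91 ± 2.18) stood apart from both neighbours, and Tnfaip3, Tlr4, Il1rn, Tlr3 and Tlr2 each overlapped the next. With TGF-β2 in WT, Nfkbia, Il1rl1 and Myd88 led, at 18.1 ± 2.33, 17.1 ± 4.71 and 14.6 ± 1.26, and Il1rn was lowest at 0.251 ± 0.138.

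Nox4 KO and WT were compared to ask whether loss of Nox4 alters these genes or their response. In control 0 of 9 genes passed, as did 0% of all 10767 genes in edgeR, with 0 of the 9 and 597 of all genes at an unadjusted p under 0.05. DESeq2 also called 0 of the 9, and 28 of all genes. After TGF-β2 0 of 7 passed, with 0% of 10439 genes, 1 of the 7 and 337 of all genes at an unadjusted p under 0.05, and with DESeq2 0 of the 7 and 16 of all genes. The 1 gene was Nfkbia, with a log2 fold change of -0.39 (SE 0.12, unadjusted p = 0.0169, adjusted p = 0.838). Its stimulated Nox4 KO libraries, and those of Myd88, lay below the WT libraries, and those of Tlr4 lay above. These 3 of 7 without overlap stand beside 10.1% of all genes, and in control 0 of 9 beside 13.6%. The deleted gene, Nox4, did not pass in these edgeR fits either. Its log2 fold change was -0.99 (SE 0.37, adjusted p = 0.828) in control and -1.17 (SE 0.29, adjusted p = 0.838) after TGF-β2. A count of 0 here therefore does not show that the genotypes are alike. The paper reported genes differing between the genotypes, with Ucp2 and Hddc3 higher in Nox4 KO.

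The difference in response between genotypes passed for 0 of 9 genes and 0% of 10890, with 0 of the 9 and 292 of all genes at an unadjusted p under 0.05, and with DESeq2 for 0 of the 9 and 6 of all genes. For Irak3 it was 0.08 on the log2 scale (SE 0.28, adjusted p = 0.958), for Il1r1 0.46 (SE 0.37, adjusted p = 0.854), for Tlr3 0.72 (SE 0.52, adjusted p = 0.854) and for Tlr4 0.38 (SE 0.38, adjusted p = 0.855). The passing of Tlr3 and Tlr4 in WT only, in the test without the replicate block, is therefore not a shown difference between genotypes. With the block both passed in Nox4 KO as well (adjusted p = 0.00379 and 0.0184). For Il1rn the difference was -0.65 with an SE of 1.08, a spread that leaves it poorly determined.

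Among other Toll-like receptors and co-receptors, 2 of 7 tested fell and 0 rose in each genotype, beside 12.2% of all genes lower in WT and 14.9% in Nox4 KO. Tlr5, the flagellin receptor, fell by a log2 fold change of -2.56 (SE 0.36, adjusted p = 0.00455) in WT and -2.01 (SE 0.31, adjusted p = 0.00831) in Nox4 KO. Among other IL-1 family ligands and receptors 4 of 5 fell in WT and 1 of 4 in Nox4 KO. Il33, the alarmin that IL1RL1 recognises, had 4.84 ± 4.33 RPKM in WT control and 0.195 ± 0.149 with TGF-β2 (SD, n = 3), a log2 fold change of -4.56 (SE 0.89, adjusted p = 0.0132), and -4.44 (SE 0.71, adjusted p = 0.00874) in Nox4 KO. Il1rap, the chain shared by IL1R1 and IL1RL1, fell in WT (-0.96, SE 0.14, adjusted p = 0.00557) and had -0.75 (SE 0.32, adjusted p = 0.124) in Nox4 KO. Il1a had at most 0.283 RPKM in any library, and Il1b had 0 counts in every control library, which allows up to 0.063 RPKM in the smallest library, and at most 3 counts with TGF-β2.

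Of 29 adaptors and kinases tested, 1 rose and 3 fell in WT and 7 rose and 3 fell in Nox4 KO, beside 10.4% of all genes higher and 12.2% lower in WT and 15.1% and 14.9% in Nox4 KO, and the same shares stand beside the next lists. The median log2 fold change of the adaptors and kinases was 0.01 in each genotype. Peli2, a ubiquitin ligase of the IRAK complex (-1.27 in WT, -1.17 in Nox4 KO), and Map3k8, a kinase downstream of Toll-like receptors (-1.19 and -1.08), fell at least 2-fold in both. Of 16 NF-κB subunits and inhibitors, 3 rose and 2 fell in WT, and 0 rose and 2 fell in Nox4 KO. Bcl3, an atypical IκB protein, fell in both (-1.20 and -1.80). Of 19 NF-κB target genes, 4 rose in each genotype, and 5 fell in WT and 4 in Nox4 KO. The chemokines Cxcl5 (-5.32 in WT, -4.99 in Nox4 KO) and Cxcl1 (-3.14, -3.56) and the adhesion molecule Vcam1 (-1.97, -1.66) fell in both. The cytokines Lif (2.67, 2.68) and Csf3 (2.81, 1.60), the prostaglandin synthase Ptgs2 (1.96, 1.93) and the protease Mmp9 (3.57, 3.82) rose in both.

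The genes most like Irak3 were those with the smallest root mean square difference in centred log2(CPM + 0.5) over the 12 libraries, out of 10889 genes compared. They were Tle2 (0.139), Tbl1xr1 (0.152), Dapk1 (0.159), Apcdd1 (0.169) and Drp2 (0.202). Among the 10 genes Il1r1 was the nearest to Irak3, at 0.284 and rank 49, followed by Tlr4 at 0.493 and rank 435. Nfkbia lay at 0.82 and rank 3449 and Tnfaip3 at 0.951 and rank 7132.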

How the data were processed

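The values are counts of reads per gene that the authors deposited for the 12 libraries. Per the labels and the study's methods, base calls were made with CASAVA 1.8.2, single-end reads were mapped to GRCm38 with STAR 2.4, reads with more than 1 location were discarded, and featureCounts 1.4.6 counted reads on 1 merged exon model per gene, built from its coding isoforms. The strand setting is not given in the sources used here. Groups were taken from the sample labels. RPKM was computed with GENCODE M21 exon lengths and the total count of each library.

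Tests used edgeR 4.0.16 (R 4.3.3) with TMM factors and library sizes summed over the genes kept, for each pair of groups, and all 12 libraries for the interaction. Genes were kept at a mean of at least 1 RPKM in at least 1 group. The TGF-β2 comparisons were also run on simulated counts, with independent libraries and the same dispersion for every gene. The comparisons between genotypes and the interaction were not simulated. DESeq2 1.42.0, other normalizations and filters, all 12 libraries in 1 fit, the replicate block and left-out libraries were alternatives. Library sizes over all genes, and leaving out the pairs high in macrophage markers, were added after seeing the data. Same-numbered libraries deviated together in Nox4 KO (correlations 0.764, 0.689 and 0.741) but not in every WT pair (0.0432, 0.412 and 0.516). Replicates of a group differed by more than sampling noise (chi-square per gene 15.1 to 154, where 1 is sampling alone).

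The 10 genes and the lists were chosen with earlier results of these data known. All 10 are named, together with genes of the 5 pathway lists passing at 2-fold in both genotypes, Irak1, Irak2, Irak4, Il1rap, Il1r2, Il1a, Il1b and Il33, and the 5 genes most like Irak3. The lists also held keratinocyte and endothelial markers, which summed to at most 0.914 and 5.38 RPKM. The endothelial sum was 2.51 to 4.1 RPKM in WT control and 1.67 to 2.34 with TGF-β2. In Nox4 KO it was 3.01 to 5.38 and 2.4 to 2.86. Of the endothelial markers 1 was tested and did not pass, and their part in the results was not tested. Il1rl2, Il18r1 and Il18rap were named after their values were seen, as neighbours of Il1r1, and Pdgfra as a fibroblast marker. Precision rests on 3 libraries per group, and the limit for a count of 0 covers counting error only.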

Additional observations from a re-analysis of the deposited data

How the results depend on the processing

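The count of genes passing with TGF-β2 in WT was 5 with every library, 6 with the replicate block, in which Il1rl1 also passed (adjusted p = 0.0261), and 3 to 4 when 1 library was left out, with or without the 2-fold limit. In Nox4 KO it was 3, and became 5 with library size only and 7 with the replicate block, while leaving out 1 library gave 2 to 5, the highest without control replicate 3, and 2 to 3 with the 2-fold limit. DESeq2 gave 5 in WT and 4 in Nox4 KO, where Tlr4 was added (adjusted p = 0.0114). Library sizes summed over all genes, an alternative chosen after the data were seen, left 5 and 3, but moved the count over all genes in WT from 2425 to 2593. Also chosen after the data were seen, leaving out the WT replicate 3 pair gave 4, with Tlr3 no longer passing (adjusted p = 0.116), and leaving out the Nox4 KO replicate 1 pair gave 2. No count between genotypes and no interaction count moved from 0 for these genes under any alternative run, the replicate block included. Over single genes, comparisons and settings, 722 values stayed on their side of the threshold where one applied, 14 no longer passed and 10 newly passed. The sign changed for 56 of the 722, all without a call, and for no value with one. Over all genes in Nox4 KO, 3243 passed, against 5842 with the block and 255 without the replicate 1 pair, and in WT 1344 without the replicate 3 pair. The causes were not tested. Depth limits Tlr2 and stimulated Il1rn most, the latter with 6 to 48 counts per library.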
